A study of Mus musculus with 27 samples.

Results

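Transcripts of 7 tissue kallikreins (Klk5, Klk6, Klk7, Klk8, Klk10, Klk11 and Klk13) and of the epidermal protease inhibitor gene Spink5 were followed through cultured hair follicle stem cells (HFSCs) and freshly isolated mouse back skin. The 8 genes were chosen by symbol. All 8 had a row among the 51906 gene symbols of the RNA-seq count table and among the 32285 genes of each of 4 single cell matrices. The RNA-seq libraries came from 3D cultures of HFSCs taken from back skin at postnatal day 55, in 4 groups of 2 libraries. By the labels each genotype was sampled in 2 mice, and the cells of each mouse were grown in both media. Wild-type HFSCs and HFSCs lacking Rxra (Rxra cKO, from Sox9-CreER;Rxra-fl/fl;Rosa26-YFP mice) were grown either in medium with fetal bovine serum (FBS) or in serum-free B-27 medium with all-trans retinoic acid and the protein kinase C inhibitor Go6976 (atRA+PKCi). In the Rxra cKO the recombinase is driven from Sox9 and is active only after tamoxifen, and the media differ in more than the retinoid. The single cell data were 2 matrices of anagen back skin at about postnatal day 32, from mouse 1 and mouse 2, and 2 matrices of HFSC cultures of the same mice that were pooled after each culture condition had received its own hashtag antibody. The comparisons asked how the proteases of epidermal shedding and their inhibitor respond to the retinoid medium, and whether that response needs Rxra.

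Kallikreins are secreted serine proteases made as inactive precursors. In the outer epidermis Klk5 activates itself and then other kallikreins, and Klk5 and Klk7 cut the corneodesmosome proteins that hold dead surface cells together, which lets the cells shed. Spink5 encodes LEKTI, a secreted inhibitor made of many Kazal-type domains that blocks Klk5 and Klk7 until the acid pH of the surface frees them, and its loss causes the skin disease Netherton syndrome.

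In GRCm38 the 7 kallikrein genes are protein-coding genes on the plus strand of chromosome 7. They run from Klk13 (43712567 to 43727534) through Klk11 (43774604 to 43779263), Klk10 (43781035 to 43785410), Klk8 (43797577 to 43803826), Klk7 (43811294 to 43816359) and Klk6 (43824499 to 43832030) to Klk5 (43841971 to 43851181). RefSeq (GRCm38.p6) start site windows, from 250 bases before to 50 after the start, were at hand for all 7 kallikreins. The windows of Klk7, Klk8 and Klk10 are shown because, of the kallikreins with counts in every group of libraries, Klk8 had the smallest and Klk10 the largest difference between media in wild-type, and Klk7 is the main chymotrypsin-like enzyme. They were read from chr7:43811044-43811343, chr7:43797327-43797626 and chr7:43780804-43781103, all on the plus strand, and the capitals mark letters that matched a searched motif on either strand.
Klk7: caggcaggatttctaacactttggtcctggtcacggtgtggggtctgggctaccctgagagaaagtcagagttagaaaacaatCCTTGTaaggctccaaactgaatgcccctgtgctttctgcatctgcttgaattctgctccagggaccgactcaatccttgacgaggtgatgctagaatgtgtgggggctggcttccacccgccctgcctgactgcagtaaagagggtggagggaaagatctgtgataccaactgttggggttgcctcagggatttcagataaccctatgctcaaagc
Klk8: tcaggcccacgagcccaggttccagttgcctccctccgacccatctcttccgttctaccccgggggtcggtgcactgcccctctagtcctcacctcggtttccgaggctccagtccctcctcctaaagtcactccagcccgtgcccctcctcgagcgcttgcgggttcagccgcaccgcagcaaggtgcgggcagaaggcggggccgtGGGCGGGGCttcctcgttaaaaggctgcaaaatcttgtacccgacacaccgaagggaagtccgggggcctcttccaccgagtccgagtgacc
Klk10: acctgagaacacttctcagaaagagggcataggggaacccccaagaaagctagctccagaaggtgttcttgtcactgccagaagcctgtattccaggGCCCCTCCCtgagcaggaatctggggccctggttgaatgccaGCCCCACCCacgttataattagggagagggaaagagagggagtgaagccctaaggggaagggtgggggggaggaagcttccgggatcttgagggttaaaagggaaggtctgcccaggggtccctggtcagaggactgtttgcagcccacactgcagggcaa
In Klk7 the capitals are a SOX-type match (ACAANG) that begins at -167, in Klk8 a KLF/SP-type match (GGGNGNGGC) at -42, and in Klk10 2 KLF/SP-type matches at -153 and -111. Of 32851 RefSeq windows of the same length, 25.8% held the KLF/SP motif and 41.2% the SOX motif, so these matches are common ones. The AP-1 motif TGANTCA (7.81% of windows), the GRHL motif AACNNGTT, which overlaps p63 sites (4.2%), and the nuclear receptor half-site AGGTCA (16.3%) had no match in the windows of the 7 kallikreins. The GC content of the printed windows was 52% for Klk7, 65.3% for Klk8 and 57.3% for Klk10.

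The RNA-seq libraries held from 25150200 to 35879600 estimated counts each, rounded to 6 digits, and 15965 genes passed the filter on low counts, all 8 genes among them. Klk11 passed only through the wild-type FBS libraries, so its level there set its entry. Markers of other cell types were low in every library. The summed level reached at most 11.6 CPM (counts scaled to a common library size, as in edgeR) for 6 fibroblast genes, of which 1 had no count in any group, 1.86 for 6 immune genes, of which 3 to 5 had none in a group, 2.99 for 5 endothelial genes and 0.770 for 5 melanocyte genes. The keratinocyte gene Krt14 was abundant throughout, with group means from 5845 to 21437 CPM. Summed over the whole Rxra gene, counts in the libraries labelled Rxra cKO were 0.49 ± 0.09 (SE) lower on the log2 scale than in wild-type in FBS and differed by 0.01 ± 0.09 in atRA+PKCi (edgeR quasi-likelihood test, adjusted p = 0.00264 and 0.927). These sums do not separate the floxed exons from the rest of the gene and therefore do not check the genotype.

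In wild-type HFSCs transcripts of the surface proteases were abundant in FBS and scarce in atRA+PKCi. Klk7, the chymotrypsin-like member, measured 346 and 383 CPM in the FBS libraries, 0.674 and 0.792 in atRA+PKCi, 158 and 221 in Rxra cKO FBS, and 11.9 and 13.0 in Rxra cKO atRA+PKCi. Klk5, the trypsin-like starter of the cascade, measured 21.7 and 22.1 CPM in wild-type FBS, no count in either atRA+PKCi library of wild-type, 10.1 and 13.1 in Rxra cKO FBS, and 0.340 and 0.522 in Rxra cKO atRA+PKCi. For both genes the 4 groups did not overlap, and their order was the same: wild-type FBS, Rxra cKO FBS, Rxra cKO atRA+PKCi, wild-type atRA+PKCi. Klk6, another trypsin-like protease, measured 122 and 137 CPM in the wild-type FBS libraries, 0.385 and 0.222 in their atRA+PKCi partners, 70.8 and 101 in Rxra cKO FBS, and 4.40 and 4.66 in Rxra cKO atRA+PKCi, again in that order without overlap.

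Klk8, or neuropsin, a trypsin-like protease known from brain and epidermis, kept the highest level of the 7 in the retinoid medium, per kilobase as well. It measured 299.7 and 352 CPM in the wild-type FBS libraries, 29.0 and 31.2 in their atRA+PKCi partners, 285 and 367 in Rxra cKO FBS, and 110.3 and 110.1 in Rxra cKO atRA+PKCi. The FBS libraries of the 2 genotypes overlapped, while the atRA+PKCi libraries stood apart by genotype. Klk10, a kallikrein of epithelial cells, measured 85.5 and 88.9 CPM in the wild-type FBS libraries, 0.160 and 0.0950 in their atRA+PKCi partners, 26.8 and 37.4 in Rxra cKO FBS, and 3.51 and 3.73 in Rxra cKO atRA+PKCi. Klk13 measured 19.8 and 23.9 CPM in the wild-type FBS libraries, 0.128 and 0.0634 in their atRA+PKCi partners, 5.50 and 7.19 in Rxra cKO FBS, and 1.23 and 0.671 in Rxra cKO atRA+PKCi. Both genes followed the order of Klk7 without overlap of the groups. Klk11 was scarce, with 1.39 and 1.66 CPM in the wild-type FBS libraries, 0.0321 and 0.0317 in their atRA+PKCi partners, 0.180 and 0.583 in Rxra cKO FBS, and 0.210 and 0 in Rxra cKO atRA+PKCi. Outside wild-type FBS its libraries held so few counts that the Rxra cKO groups overlapped.

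Spink5, the inhibitor, was abundant in every group. It measured 2164 and 2147 CPM in the wild-type FBS libraries, 219.6 and 276 in their atRA+PKCi partners, 1163 and 1426 in Rxra cKO FBS, and 309.9 and 315 in Rxra cKO atRA+PKCi. The groups did not overlap, but the atRA+PKCi groups of the 2 genotypes lay close together.

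**Figure D1:**
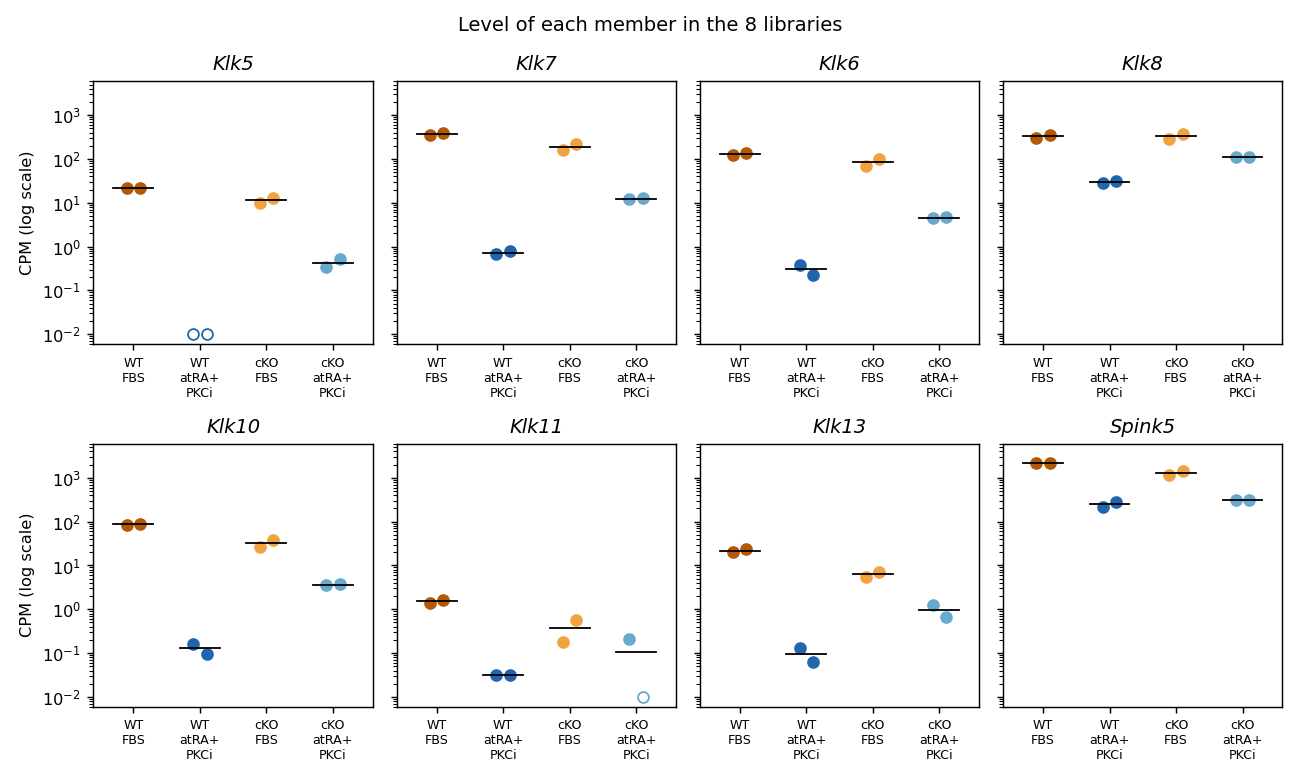
Level of each gene in each library, in CPM on a log axis, by genotype (WT, wild-type) and medium. Points are single libraries, black bars the mean of the 2 libraries, and open points at the bottom are libraries with no count. Klk7 lies between 346 and 383 CPM in wild-type FBS and between 0.674 and 0.792 in wild-type atRA+PKCi, whereas Klk8 stays at 29.0 or more in every library.

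In wild-type HFSCs 7 genes other than Klk11 were lower in atRA+PKCi than in FBS at an adjusted p under 0.05 (edgeR quasi-likelihood test, Benjamini-Hochberg over all genes), where 26.6% of genes tested were called lower. Klk11 was called lower as well, but it was tested only because of its level in wild-type FBS, so that call adds nothing to the count. No member was called higher, against 27.2% of genes tested. The log2 fold change was -9.37 ± 0.26 (SE) for Klk10, -8.95 ± 0.23 for Klk7, -8.72 ± 0.27 for Klk6 and -7.77 ± 0.37 for Klk13 (adjusted p = 2.41e-08, 1.81e-08, 3.92e-08 and 4.63e-07). With no count in the retinoid medium, Klk5 was at least 459-fold lower there, taking 3 counts over the group as the floor (adjusted p = 2.72e-07). Klk11 rested on 81 counts in FBS and 2 in atRA+PKCi, so its counts were 47.7 times as high in FBS (95% interval for counting error 12.8 to 400.5), which is given as a description. Klk8 and Spink5 had the smallest differences, -3.44 ± 0.14 and -3.12 ± 0.14 (adjusted p = 1.47e-07 and 2.47e-07). The median log2 difference over the 8, Klk11 included, was -8.25, with Klk5 as fitted or at its bound, and that over all genes tested was 0.03. In these bulk libraries fewer cells making a transcript and less transcript per cell cannot be told apart.

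In Rxra cKO HFSCs the same medium change lowered 7 of the 8 genes, where 22.2% of genes tested were called lower. No member was called higher, against 20.8% of genes tested. The log2 fold change was -4.78 ± 0.23 for Klk5, -4.25 ± 0.19 for Klk6 and -3.93 ± 0.16 for Klk7 (edgeR, adjusted p = 3.75e-06, 8.21e-07 and 6.21e-07). It was -3.15 ± 0.17 for Klk10, -2.69 ± 0.27 for Klk13, -2.05 ± 0.13 for Spink5 and -1.56 ± 0.13 for Klk8 (adjusted p = 1.98e-06, 7.99e-05, 5.52e-06 and 2.15e-05). Klk11, with 23 counts in FBS and 8 in atRA+PKCi, did not pass (-1.68 ± 0.90, adjusted p = 0.169). The median over the 8 was -2.92.

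The fall was larger in wild-type than in Rxra cKO for 7 of the 8 genes by the interaction of genotype and medium, where 13.3% of genes tested were called in that direction and 11.3% in the other. The wild-type effect minus the Rxra cKO effect was -6.22 ± 0.38 for Klk10, -5.08 ± 0.53 for Klk13, -5.02 ± 0.30 for Klk7 and -4.47 ± 0.40 for Klk6 on the log2 scale (edgeR, adjusted p = 1.50e-05, 0.000259, 1.26e-05 and 0.000112). For Klk5 the fitted difference was -7.58 ± 0.87, which rests on the wild-type group without counts, and with 3 counts there it was at least 16.3-fold (adjusted p = 0.000721). Klk8 and Spink5 had the smallest differences, of -1.87 ± 0.18 and -1.07 ± 0.18 (adjusted p = 0.000161 and 0.00293). Klk11, tested only because of its level in wild-type FBS, did not pass (-3.73 ± 1.51, adjusted p = 0.110).

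**Figure D2:**
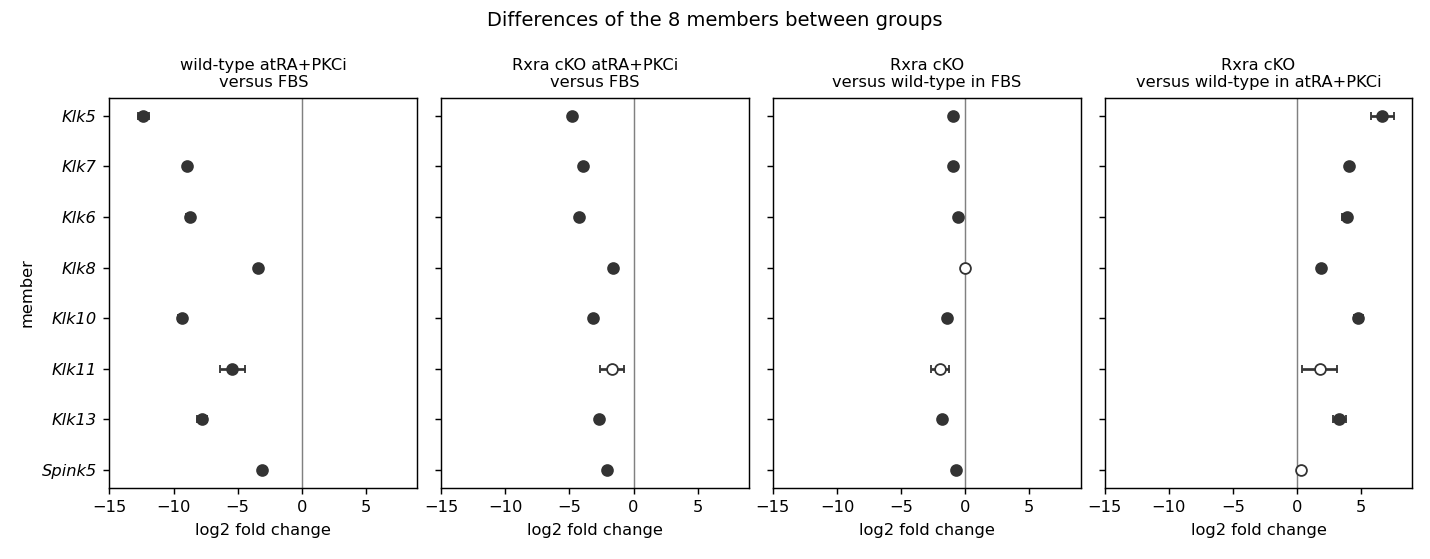
Log2 fold change of each gene in 4 comparisons, with the standard error of the fit as bars. Filled points passed an adjusted p of 0.05 and open points did not. The wild-type medium effects reach below -8 for Klk5, Klk6, Klk7 and Klk10, and the fitted Klk5 values with wild-type atRA+PKCi are not bounds, since that group held no count.

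In FBS, 6 of the 8 genes were lower in Rxra cKO than in wild-type, where 20.5% of genes tested were called lower, and none was higher, against 22.3%. The log2 fold change was -1.78 ± 0.22 for Klk13, -1.44 ± 0.14 for Klk10, -0.94 ± 0.14 for Klk7 and -0.92 ± 0.16 for Klk5 (edgeR, adjusted p = 0.000304, 6.29e-05, 0.000755 and 0.00297). It was -0.74 ± 0.13 for Spink5 and -0.59 ± 0.15 for Klk6 (adjusted p = 0.00166 and 0.0122). Klk8 differed by less than its error, with a mean of 326 CPM in both genotypes and an SD (n = 2) of 37.2 in wild-type and 57.8 in Rxra cKO. Klk11 did not pass (-1.97 ± 0.71, adjusted p = 0.0521), and it was tested only because of its level in wild-type FBS. At an adjusted p under 0.01 and a log2 change over 1, only Klk10 and Klk13 remained of the 6.

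In atRA+PKCi the direction between genotypes turned, and 6 of the 8 genes were higher in Rxra cKO, where 23.0% of genes tested were called higher, and none was lower, against 20.2%. Klk10 was 4.78 ± 0.37 higher on the log2 scale, Klk7 4.08 ± 0.26, Klk6 3.88 ± 0.37, Klk13 3.30 ± 0.49 and Klk8 1.87 ± 0.13 (edgeR, adjusted p = 1.67e-05, 5.45e-06, 5.24e-05, 0.000758 and 9.34e-06). Klk5, with 27 counts in Rxra cKO and none in wild-type, was at least 8.68-fold higher (adjusted p = 0.000680). Spink5 (0.34 ± 0.13, adjusted p = 0.0596) and Klk11 (1.76 ± 1.34, adjusted p = 0.325) did not pass. Spink5 passed under several other settings, with an adjusted p down to 0.00278, and its log2 difference lay between 0.33 and 0.51 where it passed. The median over the 8 was 3.59, and 3.21 with Klk5 at its bound. These genotype comparisons use the same libraries as the medium comparisons and are not independent of them.

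Levels per kilobase of exon allow the genes to be set against each other. In wild-type FBS, Spink5 came first at 450.5 CPM per kb ± 2.61 (SD, n = 2), followed by Klk8 at 212 ± 24.2 and Klk7 at 192 ± 13.9, which did not differ beyond their spread, then Klk6 at 85.6 ± 6.68, Klk10 at 63.5 ± 1.74, Klk5 at 16.4 ± 0.221, Klk13 at 9.51 ± 1.25 and Klk11 at 1.04 ± 0.132. In Rxra cKO atRA+PKCi the order began with Klk8 at 71.5 ± 0.0956 and Spink5 at 65.3 ± 0.749, and Klk7 followed at 6.57 ± 0.381, above Klk6 at 2.99 ± 0.120 and Klk10 at 2.63 ± 0.111. Klk8 thus went from 35.6% and 37.3% of the summed kallikrein level in the wild-type FBS libraries to 95.9% and 96.7% in wild-type atRA+PKCi. Its share was 53.7% and 51.5% in Rxra cKO FBS and 84.9% and 84.3% in Rxra cKO atRA+PKCi, with no overlap between any of the groups.

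The ratio of the inhibitor transcript to the summed level of the 7 kallikreins, both per kilobase, also set 1 group apart. It was 0.828 and 0.731 in wild-type FBS, 0.706 and 0.645 in Rxra cKO FBS, and 0.768 and 0.776 in Rxra cKO atRA+PKCi. In wild-type atRA+PKCi it was 2.34 and 2.75, above every other library. Klk8 made up 95.9% and 96.7% of the summed level there, so in that group the ratio is nearly that of Spink5 to Klk8 and not to Klk5 and Klk7. The summed kallikrein level fell from 546 and 614 CPM per kb in wild-type FBS to 19.6 and 20.9 in atRA+PKCi, and from 345 and 462 to 84.3 and 84.8 in Rxra cKO, while Spink5 fell from 452 and 449 to 45.9 and 57.6, and from 243 and 298 to 64.8 and 65.8. The ratio is of transcripts and says nothing of active protein.

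Other kallikreins of the same cluster moved with them. Of 29 other kallikrein symbols only Klk9, Klk12 and Klk14 passed the filter, and each fell in wild-type atRA+PKCi. Klk9 went from 69.4 CPM ± 6.79 (SD, n = 2) to 0.0800 ± 0.0683 in wild-type (-9.69 ± 0.37 on the log2 scale), and from 22.8 ± 6.85 to 0.739 ± 0.00828 in Rxra cKO (edgeR, adjusted p = 1.05e-07 and 2.64e-06). Klk14, a further trypsin-like protease of the epidermis, was different in Rxra cKO: it was already at 0.387 CPM ± 0.140 in FBS, against 12.2 ± 0.518 in wild-type FBS, and its 0.239 ± 0.180 in atRA+PKCi was not called different (-0.60 ± 0.57, adjusted p = 0.428). Klk12 went from 941 counts to 2 in wild-type and from 84 to 3 in Rxra cKO. Klk1, Klk15 and the Klk1b genes had no count or 1 count in any group, and Klk4, between the Klk5 and Klk15 genes, held 15 counts over both wild-type FBS libraries and 4 over both of Rxra cKO FBS.

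Of the genes around the cluster that were not kallikreins, 4 passed the filter and none was called lower. Ctu1, 18.4 kb before the start of Klk14, was higher in atRA+PKCi by 0.84 ± 0.17 in wild-type and 0.95 ± 0.17 in Rxra cKO (edgeR, adjusted p = 0.00274 and 0.00199). On the far side, 556 kb from the start of Klk14, 2410002F23Rik was 0.89 ± 0.07 higher in wild-type and differed by 0.03 ± 0.07 in Rxra cKO (adjusted p = 1.33e-05 and 0.752). Zfp719 was 0.37 ± 0.12 higher in wild-type and differed by 0.09 ± 0.12 in Rxra cKO (adjusted p = 0.0301 and 0.559). 1700028J19Rik, with 22 counts in wild-type FBS and 14 in atRA+PKCi, did not pass the test in either genotype (adjusted p = 0.622 and 0.717). Within the cluster the 10 genes measured from Klk14 to Klk5 span 151.6 kb between starts. Klk8, the gene with the smallest difference in wild-type, starts at 107.2 kb, between Klk9 at 101.5 kb and Klk7 at 120.9 kb.

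**Figure D3:**
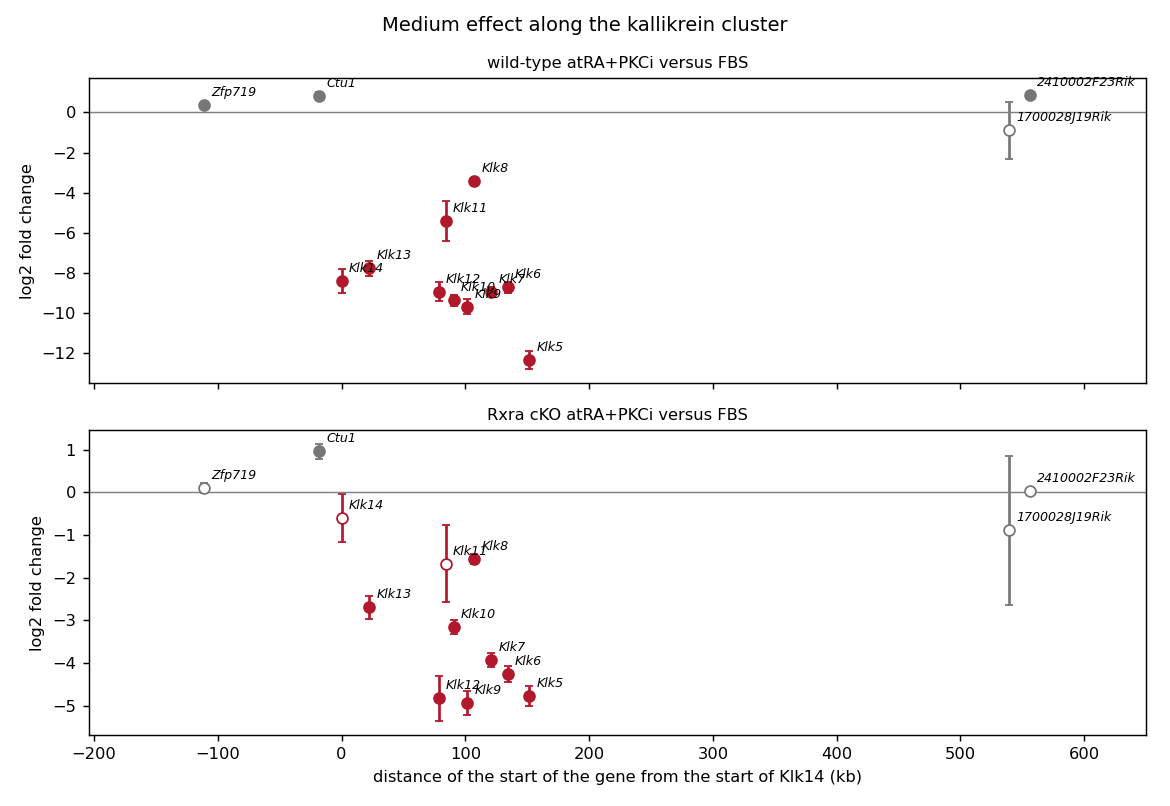
Log2 fold change of atRA+PKCi versus FBS, with the standard error as bars, against the distance of each gene's start from the start of Klk14 in kb, for wild-type (top) and Rxra cKO (bottom). Kallikreins are red, other genes grey, and open points did not pass an adjusted p of 0.05. All red points lie below 0 and Klk8 is the highest red point in wild-type, while Ctu1 lies above 0 in both genotypes.

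Most measured genes on a list of substrates, receptors and related genes of these proteases fell as well. Of 10 measured in wild-type, 8 were lower with atRA+PKCi and 1 was higher, against 26.6% and 27.2% of all genes tested. Their median was -7.68 on the log2 scale. Cdsn, which encodes the corneodesmosin that Klk5 and Klk7 cut, measured 477 CPM in FBS and 0.989 in atRA+PKCi in wild-type, against 282 and 29.3 in Rxra cKO (log2 fold changes of -8.91 ± 0.21 and -3.26 ± 0.14, edgeR adjusted p = 1.28e-08 and 8.13e-07). The corneodesmosome cadherin gene Dsc1 had the largest fall in wild-type, -10.20 ± 0.30, and the thrombin receptor gene F2r rose, by 2.37 ± 0.15 (adjusted p = 3.18e-08 and 2.05e-06). F2rl1, the receptor that Klk5 can activate, changed by -0.54 ± 0.12 in wild-type and -1.09 ± 0.13 in Rxra cKO (adjusted p = 0.00594 and 0.000210). In Rxra cKO, 7 of the 10 were lower, against 22.2% of all genes tested, with a median of -1.82. Dsg1a, a desmoglein gene of the corneodesmosome, was not called there, with 54.9 CPM in FBS and 48.1 in atRA+PKCi.

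Other inhibitors and proteases of the epidermis were mostly lower too. Over all genes tested, 26.6% were called lower in wild-type and 22.2% in Rxra cKO. The 12 measured inhibitors of other families were all lower in wild-type atRA+PKCi (median -3.31), from Wfdc5 (-11.43 ± 0.36) to Spint2 (-0.46 ± 0.07), and 9 of the 12 in Rxra cKO (median -1.48), from Slpi (-3.96 ± 0.15) to Spint1 (-0.39 ± 0.09). Of the 4 other Kazal-type inhibitor genes measured, 3 were lower and 1 higher in each genotype. Spink7 changed by -10.74 ± 0.37 in wild-type and -7.30 ± 0.40 in Rxra cKO, Spink12 by -5.09 ± 0.27 and -1.33 ± 0.27, and Spink2 by -1.31 ± 0.41 and -1.83 ± 0.35. The higher gene was Spink10 (1.16 ± 0.42 and 2.08 ± 0.43). Of 13 other serine proteases, such as matriptase (St14) and the Tmprss genes, 10 were lower in wild-type with a median of -0.94, and 9 in Rxra cKO with a median of -0.73, led by Tmprss4 (-8.20 ± 0.31) in wild-type and Tmprss11d (-3.16 ± 0.21) in Rxra cKO. The 8 other proteases of the cornified layer were lower in wild-type with a median of -1.18, led by Asprv1 (-7.84 ± 0.16), which processes profilaggrin, and 6 of them in Rxra cKO with a median of -0.66.

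Suprabasal differentiation genes and stem cell genes give the state of the cultures beside these values. Over all genes tested, 26.6% were called lower and 27.2% higher in wild-type, and 22.2% and 20.8% in Rxra cKO. Of 10 suprabasal genes, 9 fell with atRA+PKCi in wild-type (median -4.69), led by Cnfn (-11.05 ± 0.37), and none was higher. In Rxra cKO 8 were lower and 2 higher, the keratin gene pair Krt1, from 2.95 to 38.4 CPM, and Krt10, from 8.48 to 26.3 CPM. The 6 genes measured of the stem cell list did not move together, and that list includes the general keratinocyte genes Krt5 and Krt14. In wild-type 3 were lower, 2 higher and 1 not called (median -0.34), and in Rxra cKO 1 was lower, 2 higher and 3 not called (median 0.11). The stem cell keratin gene Krt15 measured 4.20 CPM in FBS and 4503 in atRA+PKCi in wild-type, against 7.37 and 248 in Rxra cKO (log2 fold changes of 10.07 ± 0.17 and 5.07 ± 0.14). Krt14 of the same list fell in wild-type, by -1.87 ± 0.10. The part of these genes in the kallikrein values was not tested.

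The genes whose levels over the 8 libraries were most like each of the 8 are named by rule. By Pearson r of log2(CPM + 0.5) among 13022 other genes with a mean of at least 1 CPM, Klk7 was closest to Defb4 (a defensin gene, 0.9997), Ly6g6c and Krt80, Klk5 to Lce3d, Pde2a and Arf6, and Klk6 to Gm5416, Tuba4a and Dclk1. Klk8 was closest to Fam25c (0.999), Gjb2 and Pla1a, Klk10 to Gltp, Vsig10l and Sprr2j-ps, and Klk13 to Serpinb5, Wfdc5 and Tmem125. Spink5 was closest to Xbp1, Mxd1 and Itgb1, and Klk11, the scarcest, to Psmd10 (0.988), Amtn and Il13ra1. These values rest on 8 libraries in 4 groups, so a large group difference alone gives a high r: between 466 and 658 genes lay above 0.95 for each member but Klk11, for which 91 did. Of the other members, Klk6 stood highest in the list of Klk7, at rank 14, and Klk7 stood highest in that of Klk8, at rank 91.

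In anagen back skin the same transcripts were rare overall and concentrated in few cells. After filters on cell quality and removal of called doublets, 13586 cells of mouse 1 and 13391 cells of mouse 2 were kept, with a median of 8661 and 10396 transcript counts (UMIs) per cell. They formed 31 clusters, of which 20 could be named from marker lists. By the study's methods the sort selected cells without CD45, CD31, CD140a and CD117, yet fibroblast-, immune-, endothelial- and melanocyte-like clusters were present. The 2 in vivo matrices shared 62 cell barcodes of 16068 in the smaller, and any other pair shared at most 5. The 8 genes were left out when the clusters were made, but genes that move with them were not, so levels by cluster are a description with no test.

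Cluster 19, with 302 and 293 cells, was suprabasal epidermal and infundibular-like by 7 of 8 markers, with Krt1, Krt10, Krt79 and Krtdap among its leading genes. The outer root sheath list came next, with 5 of 6 markers. Cluster 19 held most UMIs of 6 of the 8 genes. Klk7 measured 247 and 208 CPM there in mouse 1 and mouse 2, Spink5 151 and 82.5, and Klk8 79.1 and 81.0. Klk5 measured 40.0 and 35.5 CPM, Klk11 31.7 and 43.0, and Klk6 8.65 and 3.01. In both mice Klk7 had the most UMIs of the 8, and Klk11 was near Klk5, whereas per kilobase Klk11 was far below Klk5 in the FBS cultures. The cluster held 85.2% and 83.9% of all Klk7 UMIs, 84.0% and 79.2% of those of Spink5, 80.2% and 88.1% of those of Klk5, 79.4% and 91.1% of those of Klk11 and 76.8% and 72.1% of those of Klk8. For Klk6 it held 84.0% and 58.8% of only 25 and 17 UMIs.

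Only a part of these cells held each transcript. After every cell was thinned to 3000 UMIs, which left out 15 and 12 cells of the cluster as too shallow, Klk7 was seen in 23.7% and 19.9% of cells, Klk8 in 16.7% and 14.2%, Spink5 in 12.5% and 9.25%, Klk11 in 10.5% and 8.90% and Klk5 in 9.76% and 8.54%. Without thinning the shares were 30.1% and 25.6% for Klk7, 29.1% and 32.8% for Klk8, 17.2% and 15.0% for Spink5, 20.2% and 27.3% for Klk11 and 16.6% and 16.0% for Klk5. Fibroblast-like cells, which should lack these transcripts, gave 0.199% and 0.291% for Klk7 and at most 0.0672% for any other member after thinning, over 2008 and 4464 cells. Immune- and endothelial-like cells had been set as background too, but Klk8 was seen there. It was in 4.08% and 4.90% of thinned cells of endothelial-like cluster 26, and in 17.6% and 14.6% of immune-like cluster 29. In immune-like cluster 22 it was in 1.81% and 0.993%. Other members were in at most 0.980% of cells of these clusters. The median depth was 8466 UMIs in cluster 19 and between 9972 and 13438 in the 4 fibroblast-like clusters. The inhibitor was the more unevenly spread: 10 cells held 71.1% and 69.0% of the Spink5 UMIs of the cluster, with up to 120 and 62 in 1 cell, whereas 10 cells held 34.2% and 42.5% of its Klk7 UMIs, with up to 42 in each mouse.

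Some cells held protease and inhibitor transcripts together, while most thinned cells with Klk7 had no Spink5 UMI. In a separate draw of the thinning, of the cells with Klk7, 22.2% and 18.2% also held Spink5, against 8.37% and 6.19% of cells without Klk7. Klk5 was found in 22.2% and 23.6% of cells with Klk7 and in 3.72% and 3.98% of those without, and Klk8 in 31.9% and 34.5% against 9.30% and 10.6%. These shares describe 72 and 55 cells with Klk7 and were not tested.

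Klk10 and Klk13 were spread differently. Cluster 19 held only 17.0% and 27.7% of the 47 and 65 Klk10 UMIs, at 3.30 and 5.42 CPM. Inner root sheath-like cluster 3, with 2419 cells, held 53.2% and 35.4% at a lower level of 1.70 and 1.86 CPM, in 20 of 1398 and 18 of 1021 cells. Of 38 and 35 Klk13 UMIs, 44.7% and 34.3% were in cluster 3, at 1.16 and 0.970 CPM, against 1.24 and 1.51 CPM in cluster 19. The level of Klk13 was 3.70 and 2.52 CPM in cluster 16, an outer root sheath-like cluster led by Krt6a, which rests on 6 and 4 UMIs.

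UMIs of Klk8 were also found in clusters named as other than epithelium. Klk8 measured 40.9 and 53.1 CPM in Schwann-like cluster 30, 51.1 and 31.7 in immune-like cluster 29, led by the T cell and natural killer genes Ccl5, Gzma and Nkg7, and 15.3 and 20.6 in endothelial-like cluster 26. After thinning it was seen in 15.0% and 19.6% of Schwann-like cells (20 and 46 cells used), and in 17.6% and 14.6% of cells of cluster 29 (17 and 41 cells used), against 0% and 0.0448% of fibroblast-like cells. Klk5, Klk6 and Klk11 were seen in no thinned cell of clusters 26, 29 and 30. The median depth was 4556 UMIs in cluster 30, 3719 in cluster 29 and 4444 in cluster 26, and these levels rest on 5 to 19 UMIs per cluster and mouse. The median doublet score of the cells kept was 0.094, 0.091 and 0.058 in these clusters, against 0.047 in cluster 19. Whether mixed droplets add to the Klk8 values was not tested.

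**Figure D4:**
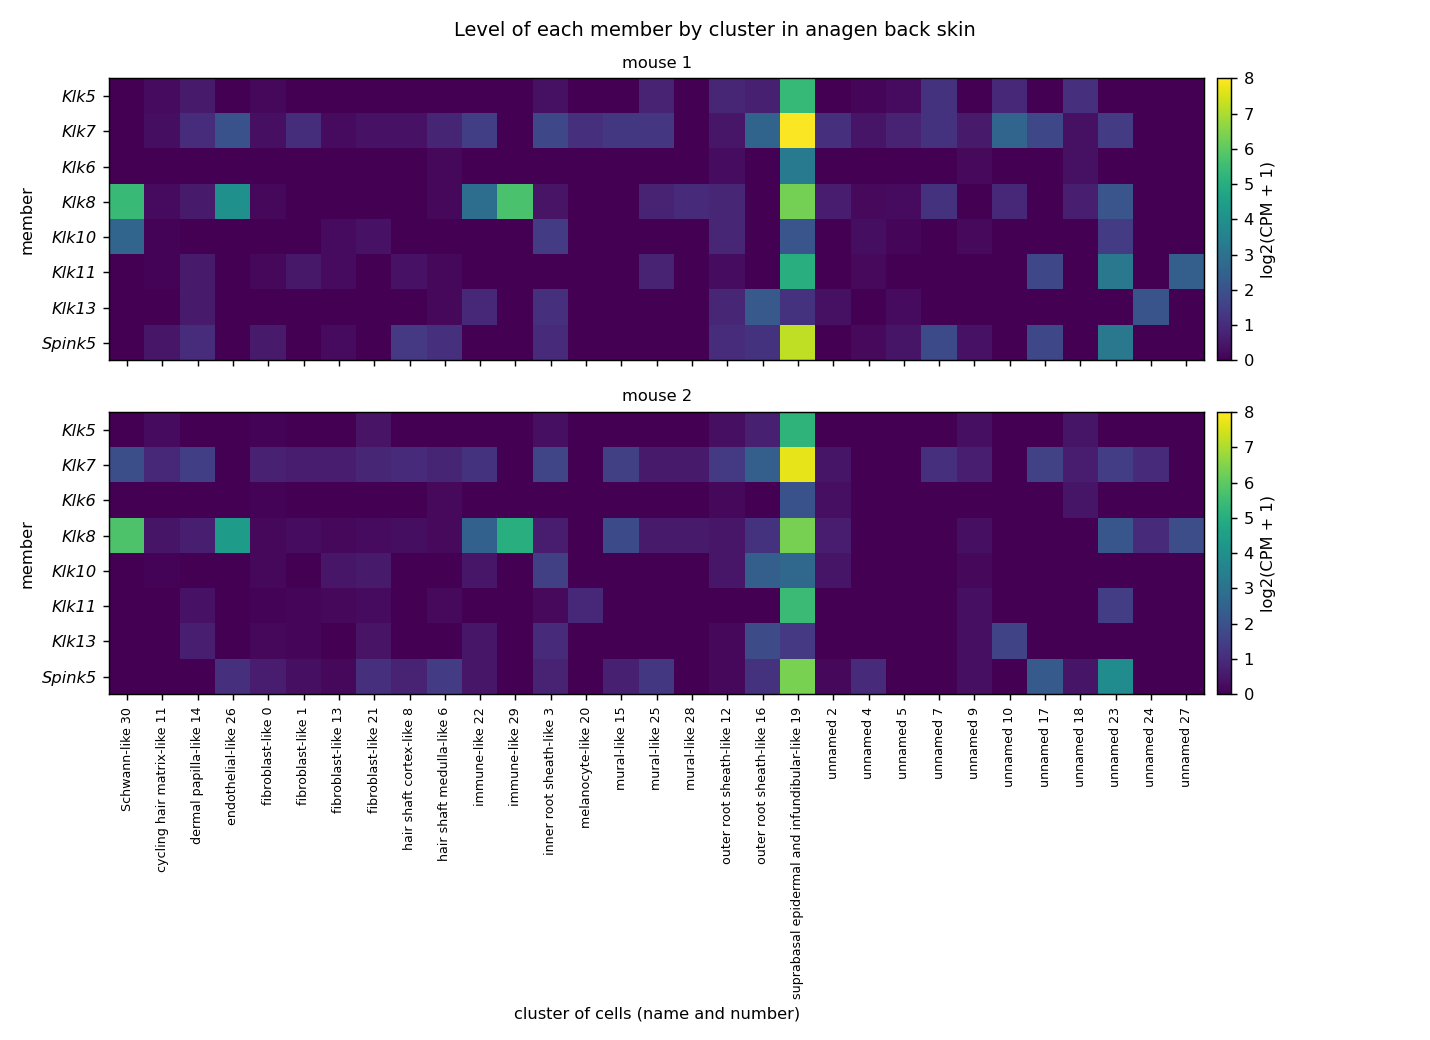
Level of each gene in each cluster of anagen back skin cells, as log2(CPM + 1) of the UMIs summed over the cells of 1 cluster and mouse, for mouse 1 (top) and mouse 2 (bottom). Suprabasal epidermal and infundibular-like cluster 19 is the brightest column for Klk5, Klk7, Klk8, Klk11 and Spink5, and Klk8 is also bright in clusters 26, 29 and 30.

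In the hashtagged cultures few cells carried each condition. Of 449 and 208 barcodes, 222 and 78 were kept as singly tagged, and none carried the FBS hashtag after filtering. The condition labelled B27, taken as serum-free B-27 medium alone, had 5 and 10 cells, atRA+PKCi 2 and 1, R-spondin (Rspo) 5 and 6, BMP 113 and 13, Rspo+BMP 92 and 27, and Rspo+BMP with a retinoic acid receptor inhibitor (RARi) 5 and 21. UMIs were summed per mouse and condition, and sums of fewer than 5 cells stayed out of the test. Of the 8 genes, 5 passed the filter on low counts, Klk6 and Klk7 only through their B-27 sums.

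Levels of the 5 are given for B-27 and the conditions with added factors. Spink5 measured 3541 and 4183 CPM in B-27, 355 and 237 in BMP, 382 and 372 in Rspo+BMP, and 489 and 389.98 in Rspo+BMP+RARi. Klk7 measured 318 and 574 CPM in B-27, 7.58 and 3.92 in BMP, 7.30 and 4.21 in Rspo+BMP, and 10.4 and 4.98 in Rspo+BMP+RARi. All 60 Klk7 UMIs of B-27 in mouse 1 came from 1 cell, and the 126 of mouse 2 came from 5 of 10 cells. Klk10 measured 392 and 259 CPM in B-27, against 22.2 and 7.83 in BMP, and Klk6 280.5 and 118 against 7.30 and 3.92. In B-27 the Klk10 UMIs came from 3 and 6 cells, and the Klk6 UMIs from 2 cells in each mouse. Klk8 differed least, with 323 and 346 CPM in B-27 and 115 and 76.3 in BMP. In Rspo, with 5 and 6 cells, Spink5 measured 664 and 103 CPM, Klk8 80.2 and 117, Klk10 58.4 and 13.8, and Klk6 0 and 6.88, and Klk7 had no UMI. The other 3 genes were scarce: Klk5 had 14 UMIs in 1 B-27 cell of mouse 1 and none elsewhere, Klk11 had 6 and 3 in B-27, and Klk13 had 16 and 6 there.

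In the test of BMP against B-27, calls needed an adjusted p under 0.01 and a log2 change over 1 (edgeR quasi-likelihood test on sums). Of 6265 genes tested, 5.28% were called lower and 0.431% higher. Klk10 and Spink5 were called lower, and none of the 5 members tested was called higher. Klk6 and Klk7 were called lower as well, but both were tested only because of their level in B-27, so those calls add nothing. The log2 fold change was -4.04 ± 0.52 (SE) for Klk10 and -3.58 ± 0.74 for Spink5 (adjusted p = 3.03e-05 and 0.00266). For Klk7 it was -5.91 ± 0.58 and for Klk6 -4.69 ± 0.54, given as a description. Klk8 was not called (-1.66 ± 0.47, adjusted p = 0.0252). The hashtags name only the added factors, and the study describes its directed differentiation as done with atRA, so this is no contrast of BMP alone.

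No call was made in the other contrasts. Between Rspo+BMP and BMP no gene was called in either direction (0.00% lower and 0.00% higher), and the log2 differences were 0.63 ± 0.50 for Klk10, -0.13 ± 0.61 for Klk7, -0.25 ± 0.62 for Klk6, -0.13 ± 0.45 for Klk8 and 0.28 ± 0.67 for Spink5. With the RAR inhibitor added to Rspo+BMP, again no gene was called (0.00% lower and 0.00% higher), and the differences lay between -0.30 ± 0.60 for Klk10 and -0.01 ± 0.68 for Spink5. At an unadjusted p under 0.05 edgeR gave 44 and 232 genes in these contrasts, with 0 members among them, and DESeq2 called 0 members. Both numbers are below a share of 0.05 of the 6265 genes tested, so the absence of members does not show equal levels. The standard errors of these differences lay between 0.45 and 0.95.

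**Figure D5:**
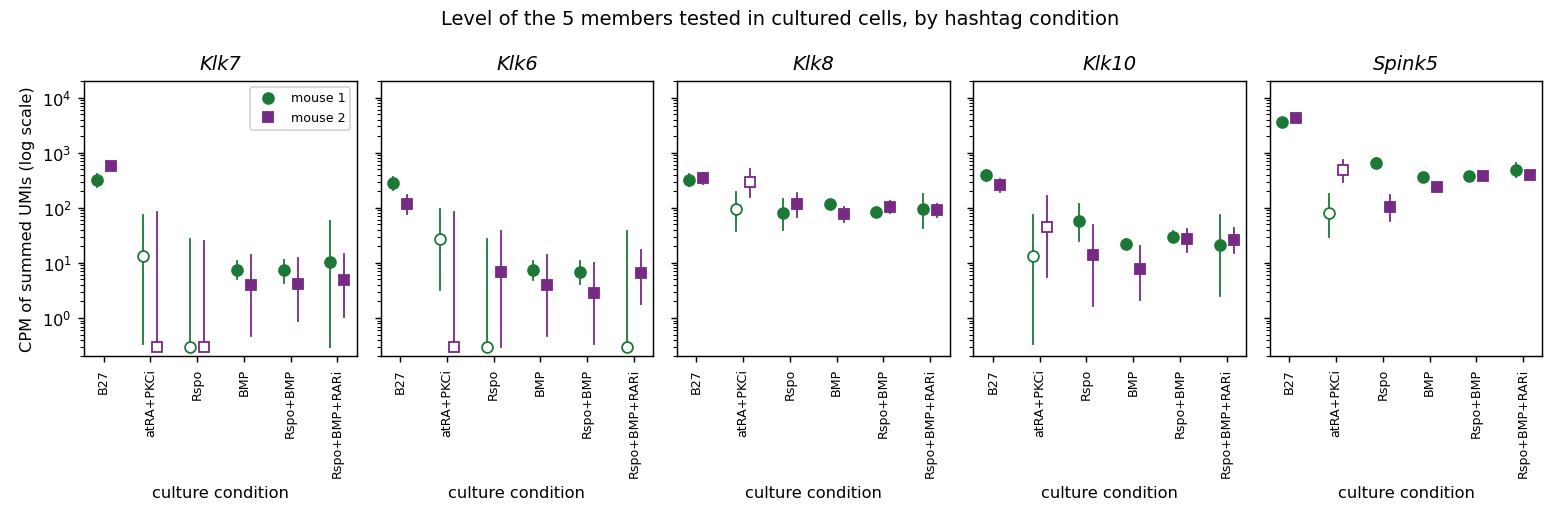
CPM of summed UMIs, on a log axis, for the 5 genes tested in cultured cells, by hashtag condition and mouse (mouse 1 circles, mouse 2 squares), with exact Poisson 95% intervals that cover counting error only. Open points are sums of fewer than 5 cells or, at the bottom, sums without a UMI. B-27 lies above the BMP conditions for all 5 genes, from 323 and 346 against 115 and 76.3 CPM for Klk8 to 318 and 574 against 7.58 and 3.92 CPM for Klk7.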

How the data were processed

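RNA-seq was measured in 8 libraries and single cell RNA in 4 matrices of 27 samples. The authors quantified the bulk reads with Salmon (1.4.0 per the submitters' processing notes, on mm10) and summed them by gene with tximport, and deposited estimated counts per gene, which were rounded to whole numbers here. The deposited single cell files hold raw UMI counts per gene and barcode from Cell Ranger (7.0.1 per the submitters' processing notes), and the hashtag counts of the cultured matrices. The authors' deposited file of normalized counts, and the ATAC-seq samples (8) and the CUT&RUN samples (5) were not used here.

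Bulk counts were fitted in edgeR (4.0.16) with TMM factors, filterByExpr at a minimum count of 10, 1 mean per group and the quasi-likelihood test over all 8 libraries, and p-values were adjusted by Benjamini-Hochberg over all 15965 genes. Standard errors are of the fitted log2 fold change. DESeq2 (1.42.0) was an alternative. Exon lengths for values per kilobase were merged exons of the GENCODE M21 annotation of GRCm38. Same-numbered libraries of a genotype came from the same mouse by their tissue labels; their deviations from the group means had r of 0.112 in wild-type and -0.00219 in Rxra cKO over 15965 genes. Across genotypes the numbers name different mice.

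In vivo cells with at least 500 genes, 1000 UMIs and under 10% mitochondrial UMIs were kept. Doublets were removed at the automatic Scrublet threshold (872 and 524 cells, 6.03% and 3.77%), and cells were clustered in scanpy (1.11.5) with 2000 variable genes, 30 principal components, 15 neighbours and Leiden resolution 0.6. Clusters were named from fixed marker lists with at least 3 markers detected. No correction for free RNA was made, whereas the study's own analysis used such a correction. Hashtags were called with HTODemux (Seurat 5.3.0), and cultured sums were tested in edgeR. The tests were checked on simulated counts with known fold changes. Named genes of the lists were the called genes with the largest and smallest change in each list at a mean level of 5 CPM or more, besides genes that a count of 5 or fewer turns on, and 3 most alike genes per member. Rxra, Cdsn, F2rl1, Dsg1a, Klk4, Ctu1, Zfp719, 1700028J19Rik and 2410002F23Rik were named outside that rule, after their values were seen. The members, lists and tests were chosen with earlier results of these data known. Counting intervals and floors cover counting error only.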

Additional observations from a re-analysis of the deposited data

Results flagged for a closer look

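For 7 of the 8 genes the medium effect differed between wild-type and Rxra cKO HFSCs by the interaction test (edgeR quasi-likelihood, adjusted p under 0.05), where 13.3% of genes tested were called in the direction of these 7 and 11.3% in the other. The wild-type effect minus the Rxra cKO effect, on the log2 scale, was -7.58 for Klk5, which depends on a group without counts, -6.22 for Klk10, -5.08 for Klk13, -5.02 for Klk7, -4.47 for Klk6, -1.87 for Klk8 and -1.07 for Spink5. Each of these genes was lower in atRA+PKCi in both genotypes, in 2 of 2 libraries of each.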

How the results depend on the processing

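In the bulk libraries, the count of members called changed by more than 1.5 times in 1 case: for Rxra cKO versus wild-type in FBS, 2 in place of 6 were lower at an adjusted p under 0.01 and a log2 change over 1. DESeq2, no filter on low counts, and a fit of only the 4 libraries compared kept the other counts within that range. Leaving out each library in turn gave 8 members lower in the wild-type medium contrast, Klk11 included, whose call there adds nothing. Over all genes 3654 of 16580 to 4316 of 16714 were lower. It gave 7 to 8 lower in the Rxra cKO medium contrast (all genes 2326 of 16640 to 3890 of 16701). The interaction gave 7 to 8 (1375 of 16663 to 2484 of 16704). In FBS 6 to 7 were lower in Rxra cKO (2493 of 16634 to 3349 of 16704). In atRA+PKCi 6 to 7 were higher in Rxra cKO (2688 of 16663 to 4018 of 16704). Over all genes, the interaction gave 1807 positive calls, against 1202 with DESeq2 and 961 without Rxra cKO atRA+PKCi replicate 1. The replicate block (mouse within genotype) gave 8 and 7 lower for the medium effects and 7 for the interaction, the counts without it. The 8 again include Klk11. Over all genes 4232, 3474 and 1984 of 15965 were called in these directions. For the genotype effects, where numbers name different mice, the block gave 6 in FBS and 7 in atRA+PKCi, the added one being Spink5 (0.34, adjusted p = 0.0247). Of 15965 genes, 3324 were lower in FBS and 3661 higher in atRA+PKCi with that block. Differences that did not pass turned in sign: Klk8 between genotypes in FBS went from -0.19 to 0.15 as libraries were left out and was 0.0059 in the fit of 4 libraries, and Klk11 ranged from -3.05 to 2.57 between genotypes in atRA+PKCi and from -4.81 to 1.07 for the interaction, in each case because its 8 counts in Rxra cKO atRA+PKCi lie in replicate 1.

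In the cultured sums the block of mouse left 4 members called between BMP and B-27, the count without it when Klk6 and Klk7 are included. Those 2 were tested only because of B-27, so their calls add nothing. No filter gave 7, which takes in members that had failed the filter and whose UMIs lay mostly in B-27. The share of all genes called under these settings was not worked out, so the counts are a description. Leaving out a mouse left no residual degrees of freedom and was not run. In vivo, keeping called doublets gave mean levels in suprabasal-like cells of 197 CPM for Klk7, 68.8 for Klk8 and 32.8 for Klk5. Stricter cell filters gave 89.0 for Klk8 and 1.81 for Klk13 there, and 2.49 for Klk10 and 2.09 for Klk13 in inner root sheath-like cells. Shares of cells moved with depth: without thinning the mean of both mice was 27.9% for Klk7, 31.0% for Klk8, 16.3% for Klk5, 16.1% for Spink5, 23.8% for Klk11, 3.85% for Klk6, 3.21% for Klk10 and 1.01% for Klk13. At 1500 UMIs it was 16.3%, 10.5%, 4.42%, 7.63%, 4.76% and 0.848% for the first 6 and 0.346% for Klk13.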
